A study of Mus musculus with 6 samples.

Results

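Conjugating and oxidising enzymes were compared between the livers of Fra-1hep mice and wild-type mice. The group holds the UDP-glucuronosyltransferases (Ugt), the cytosolic sulfotransferases (Sult) and the flavin-containing monooxygenases (Fmo). Members were every mouse gene whose symbol begins with Ugt1 to Ugt3, Sult1 to Sult9 or Fmo1 to Fmo9 and whose RefSeq accession is carried by at least 1 probe. Of 50 such genes in the RefSeq gene list, 37 had a probe (13 Ugt, 18 Sult and 6 Fmo genes, on 52 probes), among 55681 probes in all. The brightest probe stood for each gene. Signal was high enough to test 25 members (13 Ugt, 8 Sult and 4 Fmo genes), out of 22833 genes tested over the whole array.

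Fra-1hep mice carry, per the labels, an overexpression of the AP-1 subunit Fra-1 (gene Fosl1) restricted to hepatocytes, on the C57BL/6J strain. The controls were C57BL/6J wild-type mice fed chow. Both groups were 26 to 28 weeks old, received no treatment and gave whole liver RNA. On 5 arrays, RNA from 1 Fra-1hep mouse (Cy5) was hybridised together with RNA pooled from 5 wild-type mice (Cy3). The remaining array compared a Fra-1hep pool with the wild-type pool with the dyes exchanged. Neither the promoter that drives Fra-1 nor the sex of the mice is stated in these sources. The control is a single pool and counts as 1 sample, so that the spread between control mice is unknown. The p-values measure the spread between the arrays of the Fra-1hep mice only.

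UDP-glucuronosyltransferases sit in the endoplasmic reticulum and attach glucuronic acid from UDP-glucuronic acid to bilirubin, steroids, bile acids and drugs. Sulfotransferases do the same in the cytosol with sulfate from the donor PAPS, and both conjugates then leave the hepatocyte through transporters. Flavin-containing monooxygenases use NADPH to add oxygen to nitrogen and sulfur atoms of small molecules. In mouse liver, several of these genes are known to depend on sex and on nuclear receptors such as CAR (Nr1i3), PXR (Nr1i2) and the aryl hydrocarbon receptor (Ahr).

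Throughout, a value is the log2 ratio of Fra-1hep over wild type, so that 1 is a doubling, and a gene is called changed at an adjusted p under 0.05 in limma (Benjamini-Hochberg over all genes tested). The fitted value gives the dye-swapped array as much weight as all mouse arrays together. Because the fit has a term for dye, that single array is fitted exactly. It adds nothing to the spread that the SE and p-values measure. Arrays of mice 2 and 3 were nearly alike: over 18265 bright genes their ratios differed by a median absolute deviation of 0.126, against 0.179 to 0.221 for the other pairs of mice. They were therefore averaged, which leaves 4 samples of Fra-1hep mice. The wild-type pool was above background for 45.0 to 50.7% of probes and the Fra-1hep RNA for 48.5 to 58.9%. Fosl1 itself, with 1 probe, rose above background in 0 of 6 Fra-1hep and 0 of 6 wild-type channels and had a log2 ratio of -0.07 ± 0.06 (SE), so that the overexpression could not be checked on these arrays.

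In the livers of Fra-1hep mice 3 of 4 tested Fmo genes were higher, 5 of 13 Ugt genes were lower and 1 higher, and of 8 Sult genes 1 was lower and 1 higher. Of the 25 tested members, 11 changed (44.0%), beside 12.4% of all genes tested and 15.8% of those with a symbol. Higher in Fra-1hep livers were 5 members, beside 5.96% of all genes, and lower were 6, beside 6.48%. A change of at least 2-fold was called for 2 members, Ugt1a10 and Sult5a1, both lower, beside 1.19% of all genes. The median over the tested members was -0.18, beside 0.01 over all genes tested. By the brightest probe, all 11 changed members had the same sign on all 6 arrays. Dimmer probes of Fmo1, Fmo5, Ugt1a6a and Ugt1a10 had both signs. Members passed the signal filter by their level in either genotype, and 1 of them, Sult1e1, passed through the Fra-1hep channel alone.

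**Figure D1:**
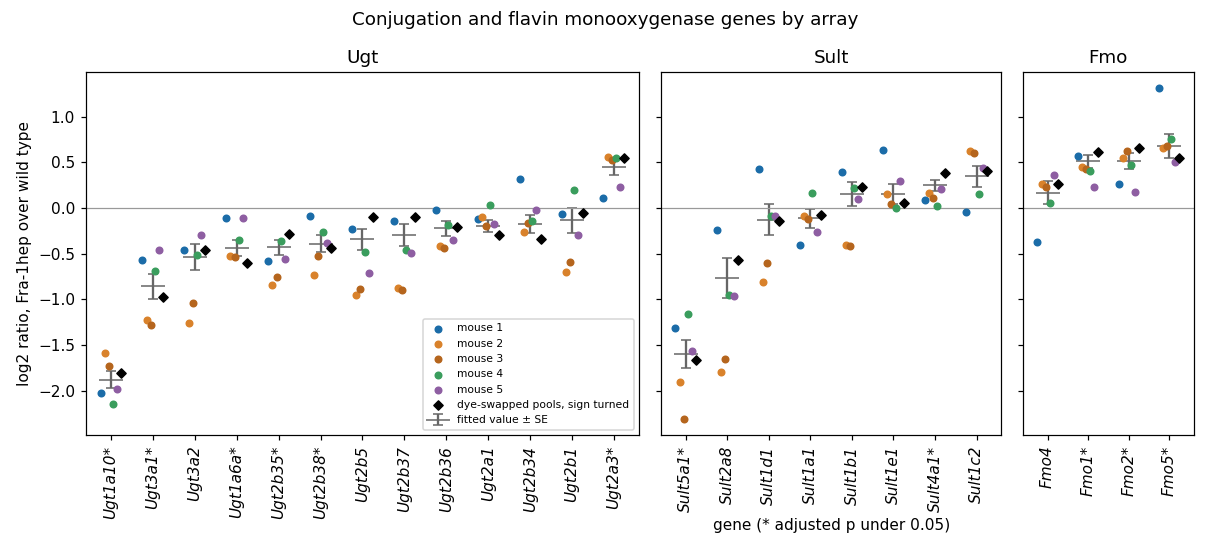
Log2 ratio of Fra-1hep over wild type (y axis) for each of the 25 tested members (x axis) in 3 panels by family. Circles are the 5 mouse arrays, the diamond is the dye-swapped array with its sign turned, and the grey bar is the fitted value with its SE. Ugt1a10 and Sult5a1 lie lowest, below -1 on every array, and the Fmo genes with an asterisk lie above 0 on every array.

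The promoters of the members with the largest falls are printed because the ratios below turn on these genes. They are the 250 bases before the RefSeq transcript start, from the GRCm38.p6 build, 5′ to 3′ on the gene's strand. Capitals mark matches to GTTAATNAT on either strand, a shortened form of the site of the hepatocyte factor HNF1. That string occurs in the same window of 0.737% of 32851 promoters.

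Ugt1a10, chr1:88055161-88055410, plus strand: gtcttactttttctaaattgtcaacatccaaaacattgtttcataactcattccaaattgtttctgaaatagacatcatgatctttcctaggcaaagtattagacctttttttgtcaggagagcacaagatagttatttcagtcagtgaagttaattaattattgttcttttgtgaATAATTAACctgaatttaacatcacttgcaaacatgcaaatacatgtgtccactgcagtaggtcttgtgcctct
Ugt3a1, chr15:9279579-9279828, plus strand: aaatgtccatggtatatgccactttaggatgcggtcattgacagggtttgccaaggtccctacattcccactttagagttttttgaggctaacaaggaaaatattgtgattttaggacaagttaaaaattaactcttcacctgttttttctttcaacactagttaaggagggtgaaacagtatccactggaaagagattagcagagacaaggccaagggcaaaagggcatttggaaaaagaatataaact
Sult5a1, chr8:123158281-123158530, minus strand: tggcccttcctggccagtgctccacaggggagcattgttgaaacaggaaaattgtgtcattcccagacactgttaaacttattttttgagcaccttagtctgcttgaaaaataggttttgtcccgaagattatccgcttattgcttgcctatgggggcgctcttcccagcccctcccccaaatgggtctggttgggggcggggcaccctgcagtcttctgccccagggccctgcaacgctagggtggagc

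Among these 3 promoters, the string was found in that of Ugt1a10, starting 74 bases before the transcript start. Among 22 tested members with a promoter it was found in 1 other, Sult1d1, which did not pass the test. A match is a match of letters only. None of the other strings searched was found in these 3 windows or in those of Fmo2, Fmo5 and Ugt2a3. They were TGACTCA and TGANTCA (AP-1), TGACGTCA (cyclic AMP response), TTCNNNGAA (STAT), TGACNNNGC (NRF2) and GCGTG (aryl hydrocarbon receptor), each on both strands. TGACTCA is contained in TGANTCA. Of the 50 genes in the gene list, 41 had a promoter in the table, 22 of them tested on the arrays.

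Ugt1a10 gave the largest fall of the 25 tested members. Its locus on chromosome 1 makes several enzymes from alternative first exons that are joined to shared last exons, so that a probe in the shared part reads all of them. Ratios were -2.03, -1.59, -1.72, -2.14 and -1.98 in mice 1 to 5 and -1.81 on the dye-swapped array. All 6 arrays lay low, between -2.14 and -1.59. The fit gave -1.88 ± 0.09 (SE, n = 4 mouse samples and the pools), or 3.68-fold lower, with an adjusted p of 5.48e-05. The processed signal of the wild-type channel was 494 to 680, all from the same pool, and that of the Fra-1hep channel 84 to 151. The channels did not overlap, which leaves the spread between wild-type mice unknown. Its other probe, dimmer and above background on 4 of 6 arrays, read -0.13 ± 0.07 with an adjusted p of 0.301 over all probes. The fall therefore rests on 1 probe, and with the mean over both it was -1.005 (adjusted p of 0.000277). On the processed signals the brighter probe read -2.46 (adjusted p of 0.00490). The position of the probes on the transcript was not used here.

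Ugt1a6a, an enzyme for small phenols from the same locus, was lower by its brightest probe. Which transcripts of the locus that probe reads was not checked. Ratios were -0.11, -0.53, -0.54, -0.35 and -0.11 in mice 1 to 5 and -0.60 on the dye-swapped array. Mice 1 and 5 stood close to 0 and the others lower. The fit gave -0.44 ± 0.09 with an adjusted p of 0.0207. Its other probes read -0.15 ± 0.06 and 0.05 ± 0.09, neither passing over all probes (adjusted p of 0.165 and 0.785). The call was lost with the mean over its probes (-0.18, adjusted p of 0.0972), on the processed signals (-0.39, 0.103), without the normexp offset (0.0642) and under median centring (-0.27, 0.0680). The other Ugt1a transcripts (Ugt1a1, Ugt1a2, Ugt1a5, Ugt1a6b, Ugt1a7c, Ugt1a8 and Ugt1a9) had no probe under the naming rule and were not analysed here, nor were Ugt2a2, Fmo6, Sult2a-ps2, Sult2a3, Sult2a5 and Sult2a7.

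**Figure D2:**
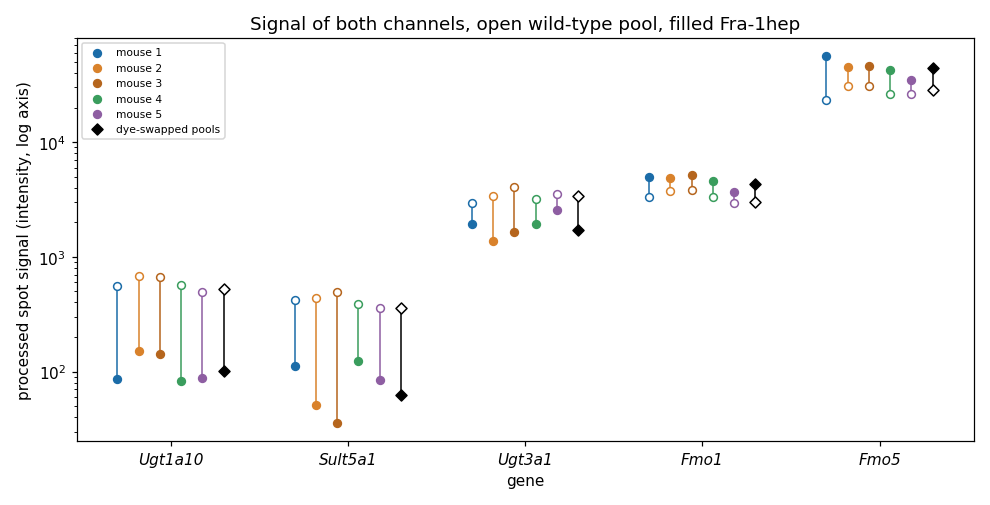
Processed spot signal (y axis, log scale) of the wild-type pool (open) and Fra-1hep RNA (filled) for 5 members (x axis), with a line joining the channels of each array. In Ugt1a10, Sult5a1 and Ugt3a1 the Fra-1hep signal lies below the wild-type signal on every array, and in Fmo1 and Fmo5 it lies above.

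Ugt3a1 and Ugt3a2 lie on chromosome 15 and belong to a small subfamily that is known to use sugar donors other than UDP-glucuronic acid. Ugt3a1 ratios were -0.56, -1.23, -1.28, -0.68 and -0.46 in mice 1 to 5 and -0.97 on the dye-swapped array. Mice 2 and 3 were lowest. The fit gave -0.86 ± 0.14, or 1.81-fold lower, with an adjusted p of 0.00735. Ugt3a2 ratios were -0.45, -1.26, -1.04, -0.51 and -0.29, with -0.46 on the dye-swapped array, and the fit missed the threshold at -0.53 ± 0.14 (adjusted p of 0.0507). It passed in 8 of 18 alternatives, among them those without mouse 2 (0.0354) or mouse 5 (0.0408). Both probes of Ugt3a2 read -0.53, and when all probes rather than all genes were tested both passed (adjusted p of 0.0461 and 0.0347).

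The Ugt2b genes are a row of close relatives on chromosome 5 that glucuronidate steroids and drugs. All 7 fitted values were below 0, from -0.43 to -0.13, with a median of -0.30, and 2 passed the test. Under median centring of the arrays in place of loess, 6 of 7 were below 0 and 0 passed, and 0 passed also with the slide as a block, on the processed signals and without the normexp offset. In the other direction, 5 of 7 passed as lower without the dye term and on the mouse arrays alone, and 4 on the slide with both dye orientations. On the mouse arrays alone Fra-1hep RNA was always in Cy5, so that genotype and dye cannot be told apart. Leaving out the dye term counts a dye effect partly as genotype. The slide with both dye orientations gives the same ratios as the slide as a block, with another measure of spread. Ugt2b35 ratios were -0.58, -0.84, -0.76, -0.36 and -0.56 in mice 1 to 5 and -0.29 on the dye-swapped array. Every array lay below 0, and the fit gave -0.43 ± 0.08 with an adjusted p of 0.0163. Its other probe read -0.29 ± 0.08 (adjusted p of 0.0591 over all probes), and the call was lost on the processed signals (-0.44, adjusted p of 0.0629) and without the normexp offset (0.0511). Ugt2b38 ratios were -0.09, -0.74, -0.53, -0.26 and -0.38 in mice 1 to 5 and -0.44 on the dye-swapped array. Mouse 1 was close to 0, and the fit gave -0.39 ± 0.10 with an adjusted p of 0.0395. That call was lost when mouse 3, 4 or 5 was left out (adjusted p from 0.0556 to 0.0690), on the processed signals (0.162) and without the normexp offset. Ugt2b1, Ugt2b34, Ugt2b36, Ugt2b37 and Ugt2b5 read -0.13, -0.18, -0.22, -0.30 and -0.35 and did not pass (adjusted p from 0.107 to 0.593). Of these, Ugt2b5 passed in 4 alternatives, among them that without mouse 1 (-0.40, adjusted p of 0.0387), Ugt2b37 in 3 and Ugt2b36 in 2. Probes of near-identical relatives may read each other's RNA, so the 7 values are not independent.

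Within the Ugt2b genes the same sample held the lowest place throughout. Mouse 1 held the highest place in 5 of 7, beside 26.4% of all genes tested, and mouse 4 in 2, beside 23.8%. The mean of mice 2 and 3 was the lowest of the 4 samples in 7 of 7 Ugt2b genes and in 10 of 13 Ugt genes, beside 25.0% of all genes tested. In Fmo genes it was the lowest in 0 of 4. Over all 25 members the SD between the 4 samples had a median of 0.28, beside 0.12 over all genes tested. Nr1i3, a receptor known to induce several of these enzymes, read -0.66, -1.36, -1.28, -0.76 and -0.64 in mice 1 to 5. The median neutrophil marker read 1.02, 2.66, 2.63, 3.06 and 1.22 in the same mice. The part of either in the Ugt2b ratios was not tested.

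**Figure D3:**
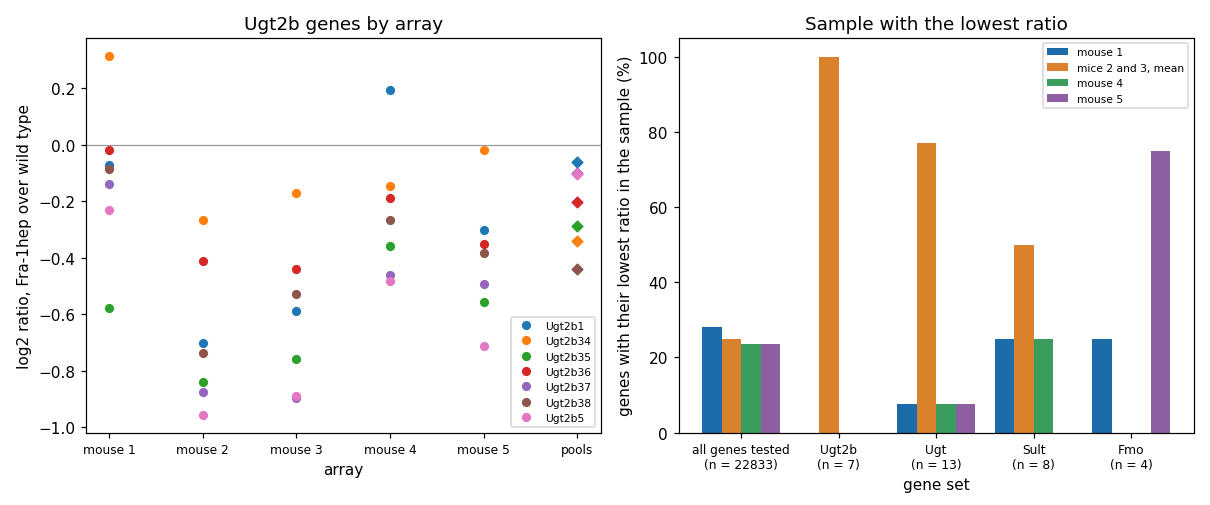
Left, log2 ratio (y axis) of the 7 Ugt2b genes on each array (x axis), with diamonds for the dye-swapped pools, sign turned. Right, percentage of genes (y axis) whose lowest ratio among the 4 mouse samples fell in each sample, for all genes tested and for the members' families (x axis): mice 2 and 3 hold the lowest ratio in 100% of Ugt2b genes and 25.0% of all genes.

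Stretches of 5 promoters are printed to show where the tested members match the looser AP-1 string TGANTCA, in capitals, with up to 30 bases on each side and cut at the end of the 250-base window (GRCm38.p6, gene strand).

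Ugt1a6a, chr1:88134655-88134721, plus strand: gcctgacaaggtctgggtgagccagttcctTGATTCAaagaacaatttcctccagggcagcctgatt
Ugt2b1, chr5:86926688-86926753, minus strand: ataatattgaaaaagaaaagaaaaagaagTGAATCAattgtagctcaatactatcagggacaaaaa
Ugt2b35, chr5:87000610-87000650, plus strand: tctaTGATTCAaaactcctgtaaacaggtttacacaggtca
Ugt2b37, chr5:87254932-87254998, minus strand: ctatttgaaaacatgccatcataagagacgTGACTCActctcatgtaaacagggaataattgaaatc
Ugt2b38, chr5:87424333-87424399, minus strand: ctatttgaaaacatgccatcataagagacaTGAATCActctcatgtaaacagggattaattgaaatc

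TGANTCA was found in 5 of 22 tested members with a promoter, beside 6.75% of all promoters in the table. The classical form TGACTCA was found in 1 tested member, Ugt2b37, beside 4.46% of all promoters. The windows of Ugt2b37 and Ugt2b38 share 64 of 67 bases, so that these matches are not independent. The 4 Ugt2b genes with a match read -0.43 to -0.13 and the 3 without read -0.35 to -0.18, ranges that overlap.

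Ugt2a3, a liver and intestine enzyme encoded beside the Ugt2b genes, was higher, and 12 of the 13 tested Ugt genes, all but this one, had a fitted value below 0 (11 under median centring). Ratios were 0.11, 0.56, 0.52, 0.54 and 0.23 in mice 1 to 5 and 0.55 on the dye-swapped array. Mouse 1 was closest to 0, and mice 2 and 3 were not low here. The fit gave 0.45 ± 0.09, or 1.37-fold higher, with an adjusted p of 0.0217. The call was lost on the processed signals (0.47, adjusted p of 0.0747) and without the normexp offset (0.46, 0.0614). Ugt2a1, known from the nasal epithelium, was dim and read -0.20 (adjusted p of 0.0904).

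Among the sulfotransferases Sult5a1, a little studied form encoded on chromosome 8, fell most. Its ratios were -1.31, -1.91, -2.30, -1.16 and -1.57 in mice 1 to 5 and -1.67 on the dye-swapped array. All 6 arrays lay below -1, with mouse 3 the lowest. The fit gave -1.60 ± 0.16, or 3.03-fold lower, with an adjusted p of 0.00107. The size depended on the background correction: the ratio was -2.15 without the normexp offset and -2.39 on the processed signals and in the deposited value table (adjusted p of 0.0116, 0.0323 and 0.0322). The wild-type signal was 356 to 495, all from the same pool, and the Fra-1hep signal 36 to 124, without overlap of the channels.

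Sult2a8, a bile acid sulfotransferase of mouse liver on chromosome 7, read low on every array but did not pass. Ratios were -0.24, -1.80, -1.65, -0.95 and -0.96 in mice 1 to 5 and -0.57 on the dye-swapped array. Mouse 1 and mice 2 and 3 stood far apart, with an SD of 0.60 over the 4 samples. The fit gave -0.77 ± 0.22 with an adjusted p of 0.0611. Without mouse 1 it passed at -0.89 (adjusted p of 0.0166). On the mouse arrays alone, where genotype and dye cannot be told apart, it passed at -0.97 (0.0102).

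Sult4a1, best known from brain, was called higher at a low level. Ratios were 0.09, 0.17, 0.11, 0.03 and 0.21 in mice 1 to 5 and 0.39 on the dye-swapped array. The mouse arrays were thus close to 0 and the dye-swapped array stood highest. The fit gave 0.25 ± 0.06 with an adjusted p of 0.0359. The call was lost without mouse 1, 4 or 5 (adjusted p up to 0.0588), on the mouse arrays alone (0.11, adjusted p of 0.158) and with the slide as a block (0.23, 0.0910).

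The other sulfotransferases did not pass. Sult1c2 read 0.35 ± 0.12 (adjusted p of 0.105), and passed without mouse 1 (0.40, 0.0446). Sult1b1, a thyroid hormone sulfotransferase, read 0.15 ± 0.13 with mice on both sides of 0. Sult1a1, the main phenol form, read -0.11 ± 0.10, and Sult1d1, which acts on catecholamines, read -0.13 ± 0.17 with a spread from -0.81 to 0.42 between mice. Sult1e1, the estrogen sulfotransferase, was above background on 4 of 6 Fra-1hep channels and 0 of 6 wild-type channels. Against a channel not above background no ratio can be measured. With each array's lowest signal above background standing in for wild type, the mean Fra-1hep level was 1.15-fold higher. That mean includes Fra-1hep channels not above background, so that no minimum increase is shown, and the fit did not pass (adjusted p of 0.435). The fitted log2 value itself moved from 0.15 to 1.43 on the processed signals (adjusted p of 0.182).

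Too dim to test were 10 Sult genes: Sult1c1, Sult2a1, Sult2a2, Sult2a4, Sult2a6, Sult2b1, Sult3a1, Sult3a2, Sult6b1 and Sult6b2. Fmo9 was also too dim. Several of them (Sult2a1, Sult2a2 and Sult3a1) are known as female-predominant in mouse liver. The Y-linked transcripts Ddx3y, Eif2s3y and Uty were above background on 6 of 6 arrays in both genotypes and 0 of the 3 changed, with values from -0.08 to 0.15. Xist was above background on 2 of 6 Fra-1hep channels and 0 of 6 wild-type channels. Among male-biased liver genes other than the members, 11 of 19 were lower and 2 higher. Among female-biased ones 7 of 12 were lower and 2 higher. Of all genes tested, 6.48% were lower and 5.96% higher. Hsd3b5 and Elovl3 (male-biased) read -3.14 and -2.02, and Cyp4a14 and Acot3 (female-biased) -6.01 and -1.02, all 4 lower. The higher ones were Gstp1 and C6 (male-biased) at 0.78 and 0.46, and Atp6v0d2 and Prom1 (female-biased) at 2.70 and 0.66.

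Of the 4 tested flavin monooxygenases, 3 were higher and all 4 fitted values were above 0, with a median of 0.51. Fmo5, which oxidises ketones and is a main liver form, gave ratios of 1.31, 0.66, 0.67, 0.76 and 0.51 in mice 1 to 5 and 0.55 on the dye-swapped array. Mouse 1 stood above the rest. The fit gave 0.68 ± 0.13, or 1.60-fold higher, with an adjusted p of 0.0172. Its dimmer probes read 0.38 ± 0.10 (adjusted p of 0.0492 over all probes) and 0.11 ± 0.14 (0.704), and the mean over its probes did not pass (0.39, adjusted p of 0.0933). The dimmest probe read 0.54, -0.29, -0.29, -0.12 and -0.23 in mice 1 to 5 and 0.24 on the dye-swapped array. On the processed signals the call was lost too (0.68, adjusted p of 0.0877).

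Fmo1, an oxygenase of nitrogen and sulfur compounds, gave 0.57, 0.45, 0.43, 0.41 and 0.23 in mice 1 to 5 and 0.61 on the dye-swapped array. All arrays lay between 0.23 and 0.61. The fit gave 0.51 ± 0.07, or 1.42-fold higher, with an adjusted p of 0.00487. Its dimmer probe read 0.24 ± 0.07 (adjusted p of 0.0740 over all probes). Fmo2, best known from lung, gave 0.26, 0.54, 0.63, 0.46 and 0.18, with 0.65 on the dye-swapped array. Mice 1 and 5 were the lower ones, and the fit gave 0.51 ± 0.09 with an adjusted p of 0.00885, a call lost on the processed signals (0.56, 0.0702). Fmo4 read 0.17 ± 0.13 with mouse 1 at -0.38, and did not pass (adjusted p of 0.448). Fmo1, Fmo2 and Fmo4 lie on chromosome 1 and Fmo5 on chromosome 3.

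**Figure D4:**
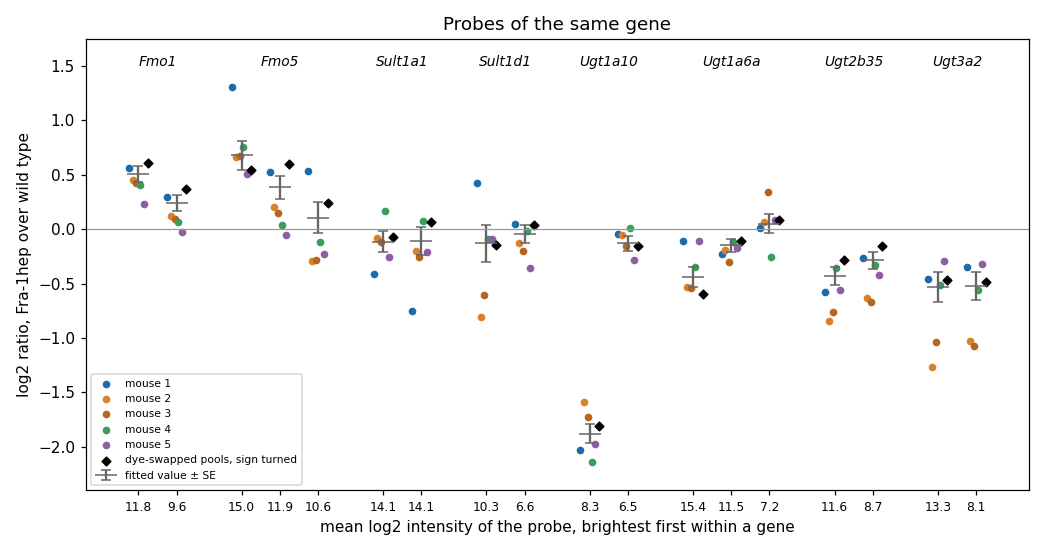
Log2 ratio of Fra-1hep over wild type (y axis) for each probe of the 8 members with over 1 probe above the signal filter. Probes run from brightest to dimmest within a gene (x axis, mean log2 intensity), circles and diamonds are arrays and the grey bar is the fitted value with its SE. The 2 probes of Ugt1a10 read -1.88 and -0.13, and the 2 probes of Ugt3a2 read the same.

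Of 11 tested genes that supply conjugation with its donors, 2 were higher and 1 lower (median 0.02). Ugdh, which makes UDP-glucuronic acid, gave 0.75, 0.52, 0.63, 0.58 and 0.53 in mice 1 to 5 and 0.67 on the dye-swapped array. These values are close together, and the fit gave 0.64 ± 0.06 with an adjusted p of 0.00117. Papss2, which makes the sulfate donor PAPS, was higher by 0.45 ± 0.09 (adjusted p of 0.0181). Slc13a4, a sulfate transporter, was lower at -0.84 ± 0.10 (adjusted p of 0.00218). Of 5 genes that split conjugates, Gusb (glucuronidase) was higher at 0.27 and Arsb lower at -0.36. Of 7 exporters, Abcb11, the bile salt export pump, was lower at -0.73 ± 0.10, and Abcc3, which carries glucuronides into blood, at -0.47 ± 0.08 (adjusted p of 0.00424 and 0.00980).

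Of 20 factors known to control these enzymes, 2 changed, both lower (10%). That share is below the 12.4% of all genes tested and the 15.8% of those with a symbol. Nr1i3 read -0.65 ± 0.12 (adjusted p of 0.0154) and Ahr -0.37 ± 0.10 (0.0439), while Nr1i2 at -0.38 did not pass (0.0538). Of 21 inducible targets of such receptors other than the members, 8 were lower and 4 higher. The largest falls were those of Cyp4a14 (-6.01), Cyp4a10 (-2.97) and Vnn1 (-1.50), known as PPARalpha targets, as is Pdk4, which was higher. Cyp2b10, a CAR target, read -1.18 and Cyp3a11, a PXR target, -0.48, both lower, as was Hmox1 at -0.55. Cyp1a2, an aryl hydrocarbon receptor target, read -0.17 and did not pass. The targets on the same list that went the other way were Gsta1, Cyp2c55, Srxn1 and Pdk4, higher at 1.14, 1.14, 0.62 and 0.63. Of 21 other transferases and oxidases, Bhmt (0.96), Gnmt (0.53) and Hnmt (0.32) were higher, and Aox3 (-0.89), Nat8 (-0.77) and Aox1 (-0.58) lower.

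In whole liver RNA, fewer cells of a type and less RNA per cell cannot be told apart. Of 12 listed hepatocyte markers 11 had a probe and gave enough signal to test, and of these 2 were higher and 2 lower, with a median of 0.07. Albumin was among the lower ones at -0.65, with ratios from -0.46 to 0.07 in the 5 mice but -1.08 in the pools. Neutrophil markers were higher in 9 of 10 (median 2.29) and cholangiocyte markers in 3 of 9 (median 0.19). Kupffer cell and macrophage markers were lower in 8 of 9 (median -0.59), and T, NK and B cell markers in 6 of 9 (median -0.33). Of the endothelial markers 6 of 10 were lower and 2 higher (median -0.42), and of the stellate cell markers 1 of 9 was lower and 1 higher (median -0.08). The part of these cell types in the members' values was not tested.

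The calls that held under all 18 alternatives were those of Fmo1, Sult5a1, Ugt1a10 and Ugt3a1. No alternative left out mice 2 and 3 together. Slides held mice 1 and 2, mice 3 and 4 with the dye-swapped array, and mouse 5. With the slide as a block, 8 members and 2244 of all genes changed. On the slide with both dye orientations alone, 14 members and 3014 of all genes did. Only that slide holds both orientations, so that both settings take their ratios from it and give the same values. They differ in the spread measured and are not 2 separate checks. On that slide Ugt1a10 read -1.87, Sult5a1 -1.70, Ugt3a1 -0.98 and Fmo5 0.63. Scaling the arrays by their median instead of loess turned the split over all genes from 1360 higher and 1480 lower to 2447 higher and 824 lower, and that over the members from 5 and 6 to 5 and 3.

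**Figure D5:**
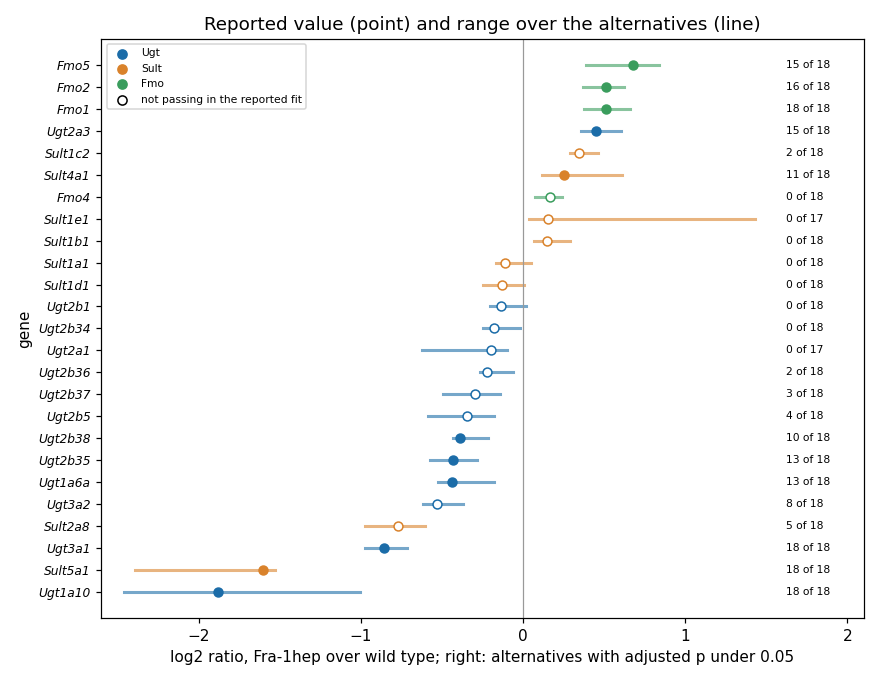
Reported log2 ratio of Fra-1hep over wild type (point, x axis) and its range over the alternatives (line) for each of the 25 tested members (y axis), filled where the adjusted p was under 0.05; the value of Sult1e1 is not a measured ratio, since its wild-type signal was not above background. The count on the right is the number of alternatives with an adjusted p under 0.05: it is 18 of 18 for Ugt1a10, Sult5a1, Ugt3a1 and Fmo1.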

How the data were processed

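Liver RNA was hybridised in 2 colours to 6 Agilent mouse arrays of 62976 spots. The submitters' processing notes name Agilent Feature Extraction 10.7 for reading the images, and the headers of the files give 10.7.3.1. For each spot the deposited files hold, by those headers, signal and background as intensity without normalization, a processed signal, and the log10 ratio of red over green. The deposited value table holds log2 ratios, equal to those log10 ratios within rounding, with the sign of the dye-swapped array turned; its columns have medians of -0.18 to 0.06.

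Here background was removed from the median signals by normexp with an offset of 50, followed by loess within arrays (limma 3.58.1, R 4.3.3, data.table version 1.17.8). Control spots had no weight and spots marked as outliers (190 to 301 an array) were left out; no spot was saturated. Replicate spots were averaged. Probes were named from their accessions through the GRCm38.p6 RefSeq gene list (26056 with 1 symbol, 29625 without) although the arrays were designed on mm9, so no coordinate was converted. A probe was kept if above background on 3 mouse arrays, or on 3 arrays for wild type (30110 probes). Log2 ratios were fitted on genotype and dye, with 3 residual degrees of freedom, and tested 2-sided. The fit was tested on simulated data.

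The series text speaks of 6 single Fra-1hep mice, the labels of 5 and a pool; the labels were used. The labels do not say whether the pool holds the same mice. Members, lists and alternatives were chosen with earlier results of these data known. Named genes are all members; of each list, genes that passed could be named, at most the 6 largest changes in each direction, and not all of these are printed. Nr1i2, Cyp1a2, Xist and the Y-linked genes did not pass and were named after their values were seen. Marker lists for kidney, intestine, lung, adipose tissue and pancreas had 2, 3, 1, 1 and 2 tested genes, of which Vil1 was higher (0.72) and Fabp2 and Cfd lower (-0.79 and -3.28). Some members are counted but not reported by name here.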

Additional observations from a re-analysis of the deposited data

How the results depend on the processing

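No result turned its direction while called, and leaving out 1 mouse at a time gave 9 to 13 changed members and 2297 to 2709 changed genes. When mouse 2 or mouse 3 was left out, the other stood for their shared sample. These runs therefore cannot show how far the results depend on that sample. Fewer members changed without the normexp offset (7, of which 3 lower), on the processed signals (5, with 2 higher and 3 lower) and in the deposited value table (5, with 2 higher and 3 lower). Genes changed fell there to 1942 without the offset, 1546 on the processed signals and 1545 in the value table. Median centring left 3 members lower and put the members' median at -0.0176, where all genes moved from 0.01 to 0.08. Without the dye term 4770 genes changed, 2299 of them lower, and 11 members were lower. On the mouse arrays alone, where genotype and dye cannot be told apart, 6076 genes changed, 2629 of them lower, and 11 members were lower. On the slide with both dye orientations 1593 of 22833 genes and 10 members were lower. The cause was not tested, except that the last settings use fewer terms or arrays. Calls were lost in at least 1 setting for Fmo5, Fmo2, Ugt2a3, Ugt2b38, Ugt2b35, Ugt1a6a and Sult4a1. Calls were gained in 8 settings for Ugt3a2, 5 for Sult2a8, 4 for Ugt2b5, 3 for Ugt2b37 and 2 each for Ugt2b36 and Sult1c2. Dim probes limit Sult1e1, Ugt2a1 and Sult4a1. Each ratio compares 2 RNAs on the same array. Mice could not be paired with single control mice because the control is a pool.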
